A study of Mus musculus with 9 samples.

Results

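Lipid-associated macrophages are macrophages that have taken up fat, as seen around dying adipocytes and in atherosclerotic plaques. Among the 28379 genes of the deposited table, 9 genes that mark this state were taken by name: Spp1, Gpnmb, Fabp4, Fabp5, Lgals3, Lpl, Plin2, Cd36 and Pparg. All 9 were present and all 9 passed the filter on low counts, which left 17002 genes for testing. The cells were bone marrow-derived macrophages (BMDMs) of C57BL/6J mice, which the study's methods give as 10 weeks old, and every culture carried M-CSF at 20 ng/ml for 48 h. The PBS group had nothing further, the RANKL group had RANKL at 100 ng/ml, the cytokine that turns these precursors into osteoclasts, and the RANKL + Vit D + K group had the same RANKL with vitamin D (calcitriol) at 1000 nM and vitamin K (menaquinone-4). The vitamin K dose is 20 μM in the labels and 40 μM in the methods. There were 3 libraries of poly(A)-selected RNA in each of the 3 groups, 9 in all. The methods mention pooled RNA without the number of mice or cultures per library, so p-values measure only the spread between these libraries, which may be technical, and no group received a vitamin without RANKL.

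A macrophage that meets lipoproteins or dying cells takes up fatty acids through CD36 and through the hydrolysis of triglycerides by lipoprotein lipase (LPL), carries them in the cytosol on fatty acid-binding proteins (FABP4 and FABP5), and stores them in droplets coated by perilipin 2 (PLIN2). PPARγ, the product of Pparg, is a nuclear receptor that is activated by fatty acids, pairs with a retinoid X receptor and raises transcription of many of these genes. Osteopontin (Spp1), GPNMB and galectin-3 (Lgals3) are secreted or surface glycoproteins and lectins that are abundant in lipid-laden macrophages. In the pathway annotation of the deposited table, 6 of the 9 genes (Fabp4, Fabp5, Lpl, Plin2, Cd36 and Pparg) belonged to the PPAR signalling pathway, which was listed for 66 genes in all.

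The start regions of the members are shown because PPARγ and the vitamin D receptor both bind repeats of the hexamer AGGTCA. The RefSeq promoter table used here (GRCm38.p6) held 9 promoters for 6 of the members, and the 250 bases before each start were searched on both strands. Fabp4, Fabp5 and Lpl were not searched here. AGGTCA occurred in 4 of the 9 promoters, 1 each of Plin2 and Cd36 and 2 of Pparg, against 14.0% of all 32851 promoters. A pair of AGGTCA hexamers in the same direction with 1 base between them, the arrangement bound by PPARγ, occurred in 0 of the 9 promoters and 0.0335% of all promoters. The arrangement with 3 bases between them, bound by the vitamin D receptor, also occurred in 0 of the 9 promoters and in 0.0061% of all promoters. The E-box CACGTG, read by MITF and the related factor TFEB, was found in 0 of 9 (6.02% of all), the AP-1 motif TGANTCA in 0 of 9 (6.75% of all), and TATAAA in 2 of 9, Spp1 and Pparg (12.4% of all). GAGGAA, the core bound by the myeloid factor PU.1, was found in 2 of 9, Spp1 and Pparg (23.3% of all). A match is a description of the letters in this window only. The windows of 80 bases that hold an AGGTCA or GAGGAA match and overlap no annotated exon are printed 5′ to 3′ on the strand of the gene, with the match in capitals. For Plin2 and Cd36 the capitals are TGACCT, which is AGGTCA on the other strand, and for Spp1 and Pparg they are GAGGAA.
Plin2 (chr4:86670230-86670309, minus strand): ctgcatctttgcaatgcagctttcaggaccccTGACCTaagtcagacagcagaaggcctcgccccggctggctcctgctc
Cd36 (chr5:17836067-17836146, minus strand): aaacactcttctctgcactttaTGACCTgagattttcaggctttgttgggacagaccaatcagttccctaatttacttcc
Spp1 (chr5:104434961-104435040, plus strand): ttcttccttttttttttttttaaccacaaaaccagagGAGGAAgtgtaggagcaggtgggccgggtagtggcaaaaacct
Pparg (chr6:115362099-115362178, plus strand): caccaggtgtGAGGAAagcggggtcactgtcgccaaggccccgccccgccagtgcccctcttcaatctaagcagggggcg

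Total counts lay between 65915112 and 68229647 in the 9 libraries, and the genes with at least 1 count numbered 20021 to 20692 in the PBS and RANKL libraries and 18794 to 19965 with the vitamins. Treatment checks came first: the summed FPKM of 7 osteoclast markers was 13.6 to 20.9 with PBS, 405.0 to 768.3 with RANKL and 49.8 to 78.7 with RANKL + Vit D + K, and Cyp24a1, which vitamin D induces, reached 0.15, 0.41 and 0.24 FPKM with the vitamins and at most 0.01 elsewhere. FPKM is the number of fragments per kilobase of transcript and per fixed number of fragments sequenced. Macrophage markers were present in every library. The summed FPKM of 9 such markers, most of it Lyz2, was 26458 to 30701 with PBS, 16715 to 24351 with RANKL and 4568 to 11612 with the vitamins, and 6 of the 9 were called lower and 1 higher against RANKL. Monocyte markers (4 genes) summed to 20.4 to 27.2, 20.6 to 33.6 and 0.26 to 4.84 FPKM in the same order, and neutrophil markers (7 genes) to 9.27 to 95.3, 9.32 to 110.3 and 0.49 to 1.5 FPKM. Endothelial markers (4 genes) summed to 0.359 to 0.428, 0.601 to 0.808 and 1.15 to 3.15 FPKM. Of these, Kdr, the VEGF receptor, was called higher with the vitamins against RANKL (2.01 in log2 units, adjusted p = 0.00779, edgeR) and against PBS (2.94, adjusted p = 0.00127, edgeR), and Tek and Emcn were below 0.1 FPKM in every library. Stromal or osteoblast, dendritic and lymphocyte markers summed to at most 0.64, 0.986 and 0.134 FPKM in any library. Whether these shifts have a part in the results on the 9 genes was not tested, and in bulk RNA fewer cells of a type cannot be told apart from less RNA per cell. Among the libraries with the vitamins, replicate 2 (vitamin replicate 2) stood apart: it had the lowest FPKM of that group for 7 of the 9 genes and the highest for Spp1 and Lpl, and its Acp5 (TRAP, an osteoclast enzyme) was 7.86 FPKM against 1.02 and 1.56. Results that rest on this library are therefore given with and without it.

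**Figure D1:**
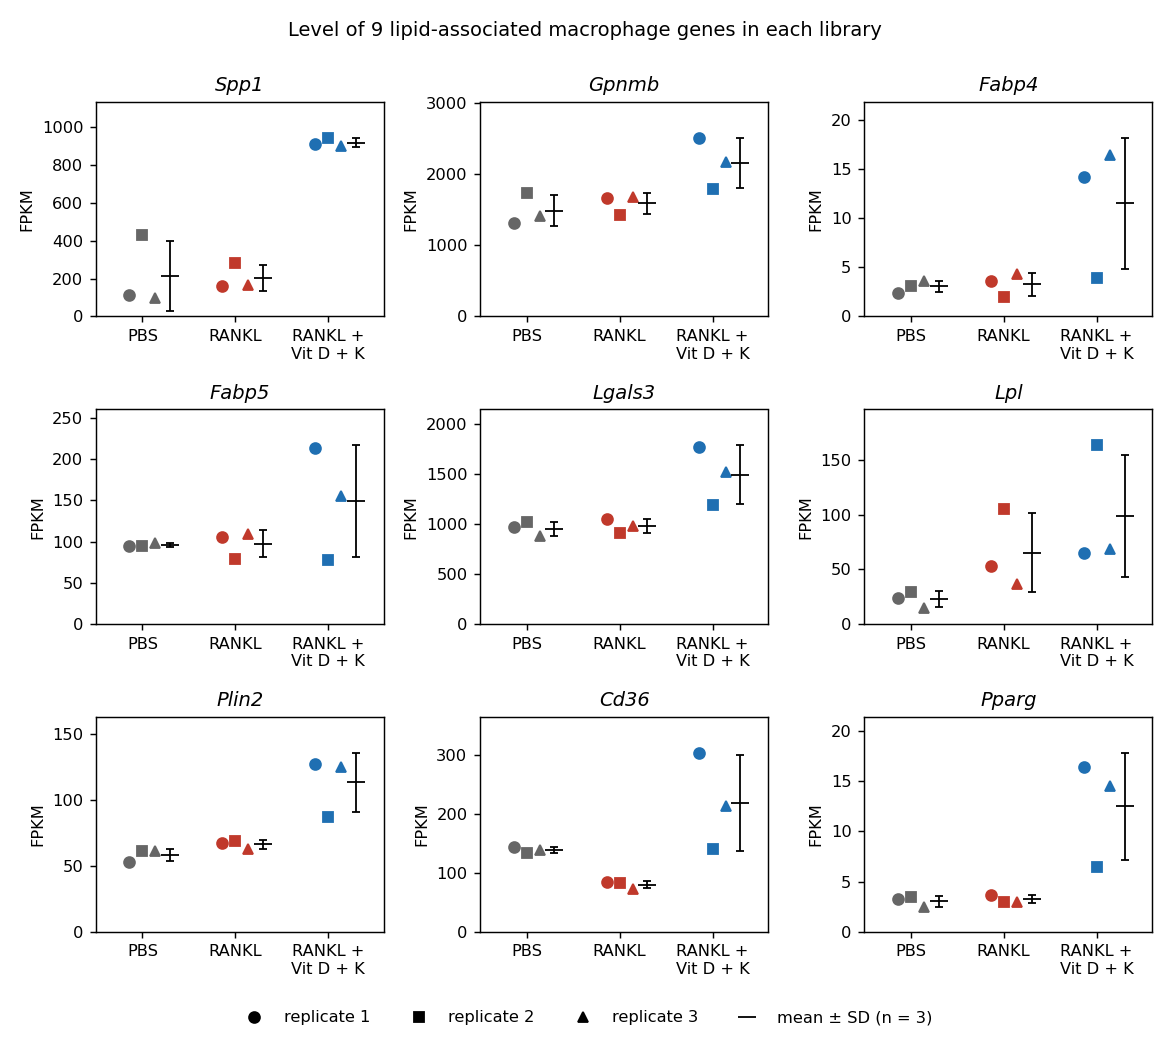
FPKM (vertical axis, linear, starting at 0) of each of the 9 genes in each library of the PBS, RANKL and RANKL + Vit D + K groups; symbols mark replicates 1 to 3, and the black bars the mean ± SD (n = 3). The vitamin libraries lie above all others for Spp1, Gpnmb, Lgals3, Plin2 and Pparg, and the square of replicate 2 is the lowest vitamin value in 7 of the 9 panels.

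Adding the vitamins to RANKL raised 7 of the 9 genes: Pparg, Cd36, Fabp4, Plin2, Spp1, Lgals3 and Gpnmb, with fold changes from 1.52 for Gpnmb to 5.04 for Spp1. Fabp5 and Lpl were not called, and 0 of the 9 fell. Over all genes tested, 16.4% were called higher and 17.2% lower in the same comparison. The median log2 fold change of the 9 genes was 0.94, and that of all genes tested was -0.04. In log2 counts per library size after TMM scaling (log2 CPM), the 3 vitamin libraries lay above all 3 RANKL libraries for 6 of the genes, and 21.5% of all genes tested were separated in that way. Against the PBS group, the RANKL + Vit D + K group was higher for 7 genes as well, Lpl taking the place of Cd36 in the list. There, 19.8% of all genes tested were called higher and 21.0% lower. The median log2 fold change was 1.00 against -0.04 for all genes tested, and 5 members were higher in log2 CPM in every vitamin library than in every PBS library, on a background of 24.1%. The comparisons with RANKL and with PBS share the vitamin libraries, so they are not independent of each other.

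With RANKL alone none of the 9 genes passed an adjusted p of 0.05 in edgeR's test (0 called, 2 with an unadjusted p under 0.05), where 3.61% of all genes tested were called, 2.35% higher and 1.26% lower. The 2 genes were Lpl, whose values were higher with RANKL, and Cd36, whose values were lower. DESeq2 called both, and edgeR with the replicate number as a block, which pairs these groups, called Lpl. Over all genes, DESeq2 called 1699 and the blocked fit 825 in this comparison, against 614 in the main fit. Log2 CPM of these 2 members did not overlap between the groups, and neither did those of 35.7% of all genes tested. The median log2 fold change of the 9 genes was -0.03.

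Without vitamin replicate 2, 8 genes were called against RANKL (all but Lpl), 9 against PBS, and Lpl and Cd36 between RANKL and PBS. Over all genes the same fit called 8259 against RANKL, 8868 against PBS and 1903 between RANKL and PBS. With all libraries these counts were 5725, 6932 and 614, so the calls rose over all genes as well. The comparison of RANKL with PBS does not contain vitamin replicate 2, but shares its estimate of the spread. In edgeR the biological coefficient of variation between replicates was 0.274 for PBS, 0.305 for RANKL and 0.442 for the vitamin group.

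**Figure D2:**
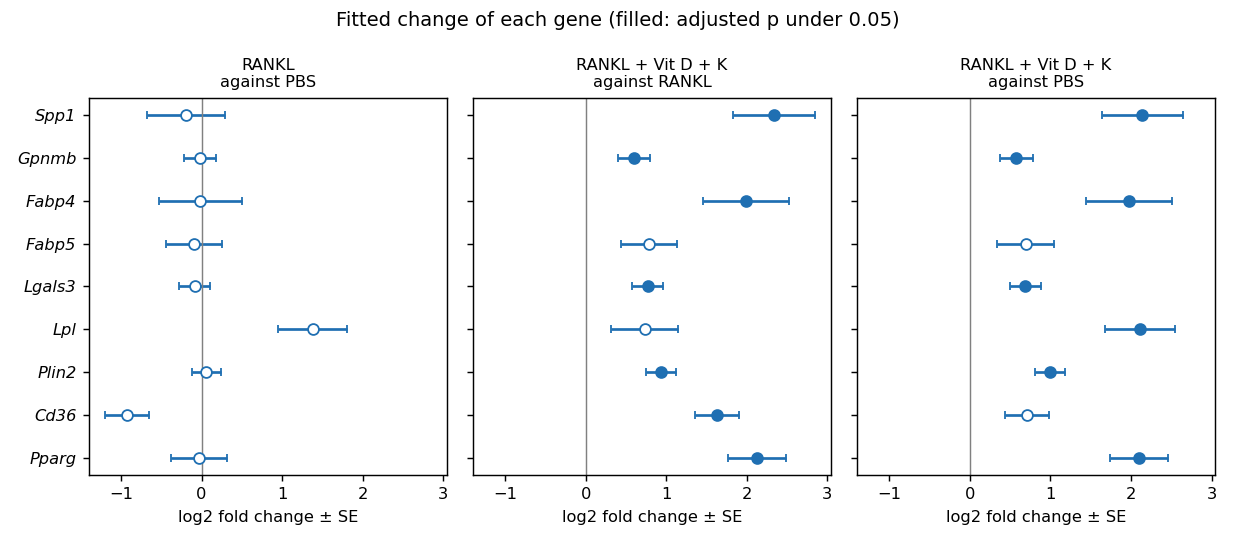
Fitted log2 fold change ± SE (horizontal axis) of each gene in the 3 comparisons, from edgeR's model of all 9 libraries; filled points have an adjusted p under 0.05. In both vitamin panels 7 of 9 points are filled and all 9 lie to the right of 0, whereas in the RANKL against PBS panel 0 are filled, with Lpl to the right and Cd36 to the left.

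Pparg (ENSMUSG00000000440, chromosome 6, 115360951 to 115490399, plus strand; coordinates on GRCm38, here and for the other genes) was expressed at a low level without vitamins. Its FPKM was 3.24, 3.45 and 2.42 with PBS, 3.71, 3.00 and 3.00 with RANKL and 16.4, 6.42 and 14.5 with RANKL + Vit D + K. The PBS and RANKL libraries overlapped, and the lowest vitamin library was above all of them. The rise over RANKL was 2.13 in log2 units, 4.37-fold (standard error, SE, 0.362; adjusted p = 0.00336, the quasi-likelihood test of edgeR after Benjamini-Hochberg correction), and over PBS it was 2.10 (SE 0.361, adjusted p = 0.00228, same edgeR test). Between RANKL and PBS the fitted log2 fold change was -0.03 (SE 0.349, adjusted p = 0.978, edgeR), with an approximate 95% interval from -0.71 to 0.66. Markers of adipocytes, the cells best known for PPARγ and FABP4, were at or near 0: the summed FPKM of the adipocyte markers in the table was at most 0.131 in every library, Plin1 was listed at 0 in all 9, and 3 of the 6 markers fixed for this check were not analysed here.

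Cd36 (ENSMUSG00000002944, chromosome 5, 17781690 to 17888801, minus strand), the scavenger receptor and fatty acid translocase, was the one member whose RANKL libraries all lay below every library of the other groups in FPKM. Its FPKM was 144, 134 and 139 with PBS, 84.3, 82.9 and 73.6 with RANKL, and 304, 141 and 213 with RANKL + Vit D + K. Vitamin replicate 2 lay inside the PBS range. The vitamin group was 3.10-fold above the RANKL group (log2 fold change 1.63, SE 0.277, adjusted p = 0.00336, edgeR). The difference between RANKL and PBS was -0.92 in log2 units (SE 0.273) and was not called (adjusted p = 0.106, edgeR), nor was that between the vitamins and PBS (0.71, SE 0.272, adjusted p = 0.0627, edgeR). Both depended on the fit. Without vitamin replicate 2, edgeR gave -0.92 (adjusted p = 0.00695) for RANKL against PBS and 0.99 (adjusted p = 0.000775) for the vitamins against PBS. Without vitamin replicate 1 it gave -0.86 (adjusted p = 0.0353) for RANKL against PBS and 0.39 (adjusted p = 0.158) for the vitamins against PBS. DESeq2 with all libraries gave -0.90 (adjusted p = 0.0222) and 0.72 (adjusted p = 0.0286) in the same order.

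Lpl (ENSMUSG00000015568, chromosome 8, 68880491 to 68906934, plus strand), the secreted triglyceride hydrolase, followed another order: lowest with PBS, with the RANKL and vitamin libraries overlapping above it. Its FPKM was 23.9, 29.3 and 14.8 with PBS, 53.2, 105.6 and 36.4 with RANKL, and 64.6, 163 and 68.6 with RANKL + Vit D + K. Replicate 2 was the highest library of all 3 groups, and every RANKL library was above every PBS library. Against PBS, the vitamin group was higher by 2.11 in log2 units, 4.32-fold (SE 0.434, adjusted p = 0.00515, edgeR). RANKL against PBS was 1.38 (SE 0.425, adjusted p = 0.118, edgeR) and not called. With the replicate number as a block it was 1.3 and called (adjusted p = 0.0129, edgeR), as it was without vitamin replicate 2 (1.38, adjusted p = 0.0426, edgeR). The vitamins against RANKL gave 0.73 (SE 0.419, adjusted p = 0.207, edgeR), with an approximate 95% interval from -0.09 to 1.55. When 1 library was left out, that value ran from 0.27 without vitamin replicate 2 (adjusted p = 0.593, edgeR) to 1.21 without RANKL replicate 2 (adjusted p = 0.0574, edgeR).

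The fatty acid-binding proteins FABP4 and FABP5 are encoded by genes 187480 bases apart on chromosome 3, and the 2 genes differed in level and in spread. Fabp4 (ENSMUSG00000062515, 10204088 to 10208576, minus strand) was low: 2.44, 3.14 and 3.62 FPKM with PBS, 3.57, 1.94 and 4.29 with RANKL, and 14.2, 3.91 and 16.4 with RANKL + Vit D + K. Vitamin replicates 1 and 3 were more than 3 times any library without vitamins, while replicate 2 fell within the RANKL range. The log2 fold change was 1.99 against RANKL (SE 0.533, adjusted p = 0.0199, edgeR) and 1.98 against PBS (SE 0.533, adjusted p = 0.0168, edgeR). The call against RANKL was lost when RANKL replicate 1 or 2 or vitamin replicate 1 or 3 was left out (log2 fold changes of 2.07, 1.71, 1.78 and 1.65, adjusted p = 0.0615, 0.0581, 0.057 and 0.0709, edgeR). Against PBS it was lost without PBS replicate 1 (1.88, adjusted p = 0.0588) or vitamin replicate 3 (1.68, adjusted p = 0.0526, edgeR), and without vitamin replicate 2 the value was 2.43 against RANKL and 2.41 against PBS.

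Fabp5 (ENSMUSG00000027533, chromosome 3, 10012548 to 10016607, plus strand) was the more abundant of the pair per transcript length. Its FPKM was 94.6, 94.9 and 98.8 with PBS, 105.1, 78.8 and 109 with RANKL, and 213.5, 78.3 and 155 with RANKL + Vit D + K. The vitamin group held both the highest and the lowest of the 9 values. The log2 fold changes of 0.79 against RANKL (SE 0.349, adjusted p = 0.111, edgeR) and 0.69 against PBS (SE 0.348, adjusted p = 0.14, edgeR) were not called. Without vitamin replicate 2 they were 1.13 (adjusted p = 0.00151) and 1.04 (adjusted p = 0.00226, edgeR), both called, and without vitamin replicate 1 they were 0.38 (adjusted p = 0.397) and 0.33 (adjusted p = 0.425, edgeR). A named copy, Fabp5l2, is also in the table, and how the counting shared reads between them is not given in the sources used here.

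Plin2 (ENSMUSG00000028494, chromosome 4, 86648386 to 86670060, minus strand), the coat protein of lipid droplets, rose about as much over RANKL as over PBS, with little spread outside the vitamin group. Its FPKM was 52.8, 61.0 and 61.3 with PBS, 67.5, 69.1 and 62.6 with RANKL, and 127, 87.4 and 125 with RANKL + Vit D + K. Every vitamin library was above every other library. The log2 fold change was 0.94 against RANKL (SE 0.186, adjusted p = 0.00609, edgeR), a 1.92-fold rise, and 1.00 against PBS (SE 0.187, adjusted p = 0.00334, edgeR). RANKL libraries were above PBS libraries in FPKM, but the fitted log2 fold change between these groups was 0.06 (SE 0.185, adjusted p = 0.909, edgeR). The fit rescales libraries by TMM factors, 0.963 to 0.993 in the PBS group and 1.04 to 1.11 in the RANKL group, which the deposited FPKM do not carry.

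Spp1 (ENSMUSG00000029304, chromosome 5, 104435118 to 104441050, plus strand) had the largest fold change of the 9 genes against RANKL with all libraries. Its log2 fold change without vitamin replicate 2 was 2.38, below those of Pparg (2.47) and Fabp4 (2.43). It encodes osteopontin, a secreted phosphoprotein that binds integrins and CD44 and is a known target of the vitamin D receptor. Its FPKM was 113, 429.7 and 99.8 with PBS, 163, 281 and 167 with RANKL, and 913, 945 and 899 with RANKL + Vit D + K. The vitamin libraries lay within 1.05 times of each other, whereas the PBS libraries spanned 4.30 times and the RANKL libraries 1.72 times, with replicate 2 the highest in all 3 groups. The rise over RANKL was 5.04-fold (log2 fold change 2.33, SE 0.506, adjusted p = 0.00862, edgeR), and over PBS it was 4.41-fold (2.14, SE 0.502, adjusted p = 0.00925, edgeR). Between RANKL and PBS the log2 fold change was -0.19 (SE 0.482, adjusted p = 0.887, edgeR), and its sign was not determined: without PBS replicate 2 the value was 0.84 (adjusted p = 0.103, edgeR). Without that library the rise of the vitamin group over PBS was 3.17 in log2 units.

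Gpnmb (ENSMUSG00000029816, chromosome 6, 49036546 to 49070929, plus strand), a lysosomal and surface glycoprotein, was the most abundant member. Its FPKM was 1312, 1729.8 and 1409.8 with PBS, 1663, 1419 and 1684 with RANKL, and 2502, 1789 and 2177 with RANKL + Vit D + K. It ranked 16 to 19 among all genes by FPKM in the PBS libraries, 18 to 19 in the RANKL libraries and 9 to 14 in the vitamin libraries. The rise over RANKL was 1.52-fold (log2 fold change 0.60, SE 0.199, adjusted p = 0.0444, edgeR) and that over PBS 1.5-fold (0.58, SE 0.199, adjusted p = 0.0432, edgeR), both close to the threshold. Every vitamin library was above every other library in FPKM, though in log2 CPM vitamin replicate 2 lay within the PBS range. The call against RANKL held in 7 of 19 alternative fits and that against PBS in 10 of 19, with log2 fold changes of 0.43 to 0.77 and 0.46 to 0.75. Leaving out any single library other than PBS replicate 2 or vitamin replicate 2 ended the call against RANKL (adjusted p = 0.0526 to 0.123, edgeR). The call against PBS ended without replicate 1 or 3 of any of the 3 groups (adjusted p = 0.0607 to 0.0949, edgeR). Without vitamin replicate 2 the values were 0.77 against RANKL (adjusted p = 0.00524, edgeR) and 0.75 against PBS (adjusted p = 0.00553, edgeR).

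Lgals3 (ENSMUSG00000050335, chromosome 14, 47367751 to 47386160, plus strand) encodes galectin-3, a β-galactoside-binding lectin. Its FPKM was 968, 1019 and 880.3 with PBS, 1056, 909.9 and 978 with RANKL, and 1772, 1187 and 1525 with RANKL + Vit D + K. All 3 vitamin libraries were above all others, and PBS and RANKL overlapped. The rise was 1.71-fold over RANKL (log2 fold change 0.77, SE 0.194, adjusted p = 0.0155, edgeR) and 1.61-fold over PBS (0.69, SE 0.193, adjusted p = 0.0199, edgeR). Together the 9 genes took 1.32 to 1.70% of all counts in the PBS libraries, 1.48 to 1.63% in the RANKL libraries and 2.06 to 2.70% in the vitamin libraries, most of it Gpnmb. Spp1 overlaps the annotated gene Gm42793 and Pparg overlaps Gm44079, and the sources used here do not say whether counting used the strand.

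**Figure D3:**
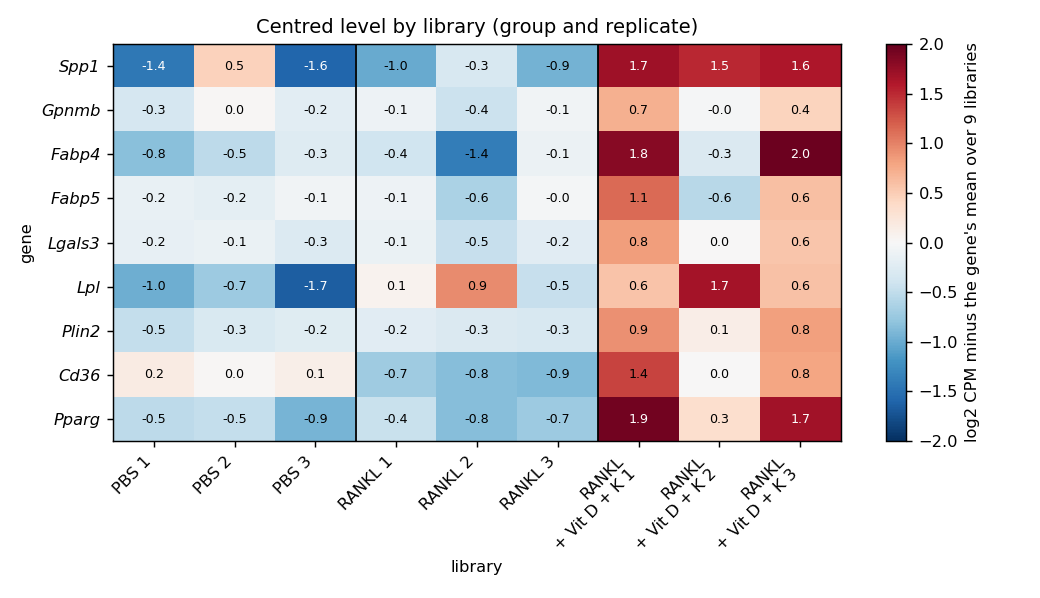
Log2 CPM of each gene in each library minus the gene's mean over the 9 libraries (colour and printed value); columns are libraries by group and replicate, and CPM are counts scaled to library size after TMM scaling. Lpl is higher in vitamin replicate 2 than in vitamin replicates 1 and 3, and the other 8 genes are lower there, Spp1 by the least.

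The 9 genes did not share one pattern over the libraries. In log2 CPM after TMM scaling, 8 of them were lowest in vitamin replicate 2 among the vitamin libraries, and Lpl was highest in replicate 2 of every group. Spp1 was highest in replicate 2 of the PBS and RANKL groups on this scale, and with the vitamins its order turned with the scale: replicate 2 was its highest library in FPKM and its lowest in log2 CPM. The genes of the table most like each member were found by the root mean square difference of centred log2 CPM over the 9 libraries, among 11175 genes that averaged 1 FPKM or more. For Gpnmb the nearest gene was Plin3 (difference 0.0736), a perilipin found in many cell types, followed by Pld1 (0.0959). For Plin2 they were Usp22 (0.0676) and Atp6v1g1 (0.07), and for Lgals3 Ubb (0.0667) and Sp2 (0.0716). Pparg was nearest to Tbc1d2 (0.149) and Gm8783 (0.153), Cd36 to Ampd3 (0.145) and Fam219a (0.157), and Fabp5 to Tbl1xr1 (0.134) and Slc30a1 (0.141). Spp1, Lpl and Fabp4 had no gene as close: Spp1 was nearest to Qpct (0.235) and Id2 (0.323), Lpl to Chaf1a (0.213) and Ppa1 (0.239), and Fabp4 to Gpcpd1 (0.31) and Kat6b (0.314). Profiles were centred but not scaled, so the difference also grows with the size of a gene's own variation. None of the 9 genes was among the 2 nearest of another.

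The partners of PPARγ moved in both directions when the vitamins were added to RANKL. Of 10 tested partners and coregulators, 3 rose and 3 fell (median log2 fold change 0.01). For this list and those below, 16.4% of all genes tested were called higher and 17.2% lower against RANKL. For the vitamins against PBS these shares were 19.8% and 21.0%, and for RANKL against PBS 2.35% and 1.26%. Ppard, which encodes PPARδ, rose by 2.13 in log2 units (adjusted p = 0.00637, edgeR), from 2.95 ± 0.54 to 11.4 ± 5.95 FPKM (SD, n = 3). The corepressor gene Ncor1 (log2 fold change 0.66, adjusted p = 0.0062) and the mediator subunit gene Med1 (0.53, adjusted p = 0.00787, edgeR) also rose. Rxra, the retinoid X receptor that pairs with PPARγ, fell from 22.1 ± 4.46 to 12.1 ± 0.835 FPKM (SD, n = 3; log2 fold change -0.74, adjusted p = 0.0142, edgeR), and the coactivator gene Ppargc1b fell from 3.85 ± 0.425 to 0.501 ± 0.14 FPKM (SD, n = 3; -2.79, adjusted p = 0.000362, edgeR). Against PBS 1 partner was higher, Med1, and 4 were lower, Rxra and Ppargc1b among them (-1.51 and -1.27, adjusted p = 0.000542 and 0.00389, edgeR). RANKL alone raised Ppargc1b (1.51, adjusted p = 0.0145, edgeR) and no other partner passed. When 1 library was left out, 0 to 5 partners were called between RANKL and PBS, with 5 without vitamin replicate 2 and 0 without PBS replicate 2 or 3 or RANKL replicate 1 or 2.

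Other genes known as PPARγ targets in fat cells and macrophages were lower with the vitamins more often than higher. Of 14 tested, with the members left out, 3 rose and 9 fell against RANKL, and their median log2 fold change was -0.96. The lower genes included Pltp, a phospholipid transfer protein (74.4 ± 13.8 to 12.8 ± 3.55 FPKM, SD, n = 3; log2 fold change -2.42, adjusted p = 0.000591, edgeR), the cholesterol exporter gene Abcg1 (-1.35, adjusted p = 0.00118, edgeR), and the stearoyl-CoA desaturase gene Scd1 (1.22 ± 0.807 to 0.129 ± 0.114 FPKM, SD, n = 3; -3.02, adjusted p = 0.0333, edgeR). The 3 that rose were malic enzyme (Me1, 0.72), the fatty acid transporter Slc27a1 (0.55) and the long-chain acyl-CoA dehydrogenase Acadl (0.36), with adjusted p = 0.0212, 0.0111 and 0.0409 in edgeR's test. Against PBS, 2 of the 14 were higher and 7 lower (median -0.68), Angptl4, an inhibitor of LPL, by the most (log2 fold change -2.67, adjusted p = 0.0104, edgeR). RANKL alone raised 1 of the 14, Nr1h3, which encodes LXRα (1.27, adjusted p = 0.0186, edgeR). Nr1h3 was also among the genes that fell when the vitamins were added to RANKL (-1.26, adjusted p = 0.00376, edgeR). Leaving out single libraries gave 6 to 12 called target genes against RANKL, with 6 without RANKL replicate 1 or without vitamin replicate 3, and 7 without vitamin replicate 1.

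Transcription factors known to act on the members were also split. Of 15 tested regulators, 4 rose and 6 fell against RANKL (median log2 fold change -0.32). Bhlhe40 rose from 12.1 ± 3.79 to 66.3 ± 43.4 FPKM (SD, n = 3; 2.67, adjusted p = 0.00829, edgeR), Cebpb by 1.46 (adjusted p = 0.00562, edgeR) and Hif1a by 0.84 (adjusted p = 0.041, edgeR) in log2 units. Nfatc1, the master factor of osteoclasts, fell from 18.2 ± 3.53 to 6.77 ± 0.609 FPKM (SD, n = 3; -1.27, adjusted p = 0.00044, edgeR), and Irf4 fell by 1.80 in log2 units (adjusted p = 0.00145, edgeR). Vdr, the vitamin D receptor gene, was at a very low level throughout, 0.206 ± 0.106, 0.111 ± 0.036 and 0.0108 ± 0.0118 FPKM (SD, n = 3) in the PBS, RANKL and vitamin groups (-3.15 against RANKL, adjusted p = 0.0227, edgeR). Against PBS 1 regulator was higher, Bhlhe40 (5.06, adjusted p = 0.000636, edgeR), and 6 were lower. RANKL alone raised Nr1h3 and Nfatc1 (0.81, adjusted p = 0.0121, edgeR) and lowered Cebpa (-0.95, adjusted p = 0.0173, edgeR). Leaving out single libraries gave 5 to 11 called regulators against RANKL, with 5 without RANKL replicate 1 or vitamin replicate 1, and 6 without RANKL or vitamin replicate 3. Between RANKL and PBS it gave 0 to 8, with 8 without vitamin replicate 2, 1 without PBS replicate 2 and 0 without PBS replicate 1 or 3 or RANKL replicate 1.

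**Figure D4:**
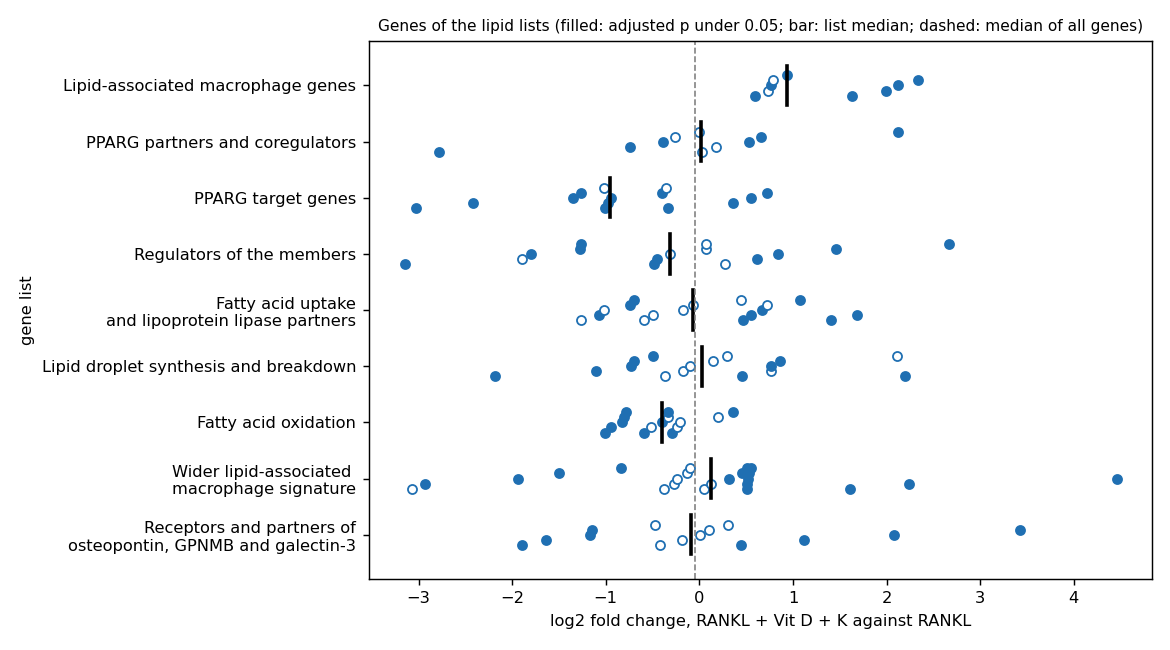
Log2 fold change of the RANKL + Vit D + K group against the RANKL group (horizontal axis) for each tested gene of the 9 members and of 8 related lists, members left out of the lists; filled points have an adjusted p under 0.05, black bars are list medians and the dashed line is the median of all genes tested (-0.04). The median of the 9 members is 0.94, those of the PPARγ targets and of fatty acid oxidation are -0.96 and -0.40, and the other lists have points on both sides of 0.

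Of the other 7 fatty acid-binding protein genes listed, 2 were tested, Fabp3 (log2 fold change -0.35 against RANKL, adjusted p = 0.546, edgeR) and Fabp7 (-1.24, adjusted p = 0.0728, edgeR), and neither was called in any of the 3 comparisons. Fabp7 had 1.92, 6.69 and 2.86 FPKM with PBS, 8.32, 15.0 and 8.60 with RANKL and 2.21, 6.50 and 3.64 with the vitamins. Of the other 4 perilipins only Plin3 was tested, and its rise of 0.50 in log2 units against RANKL was not called (adjusted p = 0.0802, edgeR). Without vitamin replicate 2, Plin3 and 1 of the 2 fatty acid-binding protein genes were called against RANKL, and 1 of the latter without PBS replicate 2. Among 4 tested galectins, Lgals8 rose (0.68, adjusted p = 0.0109, edgeR) and Lgals9 fell (-1.01, adjusted p = 0.00409, edgeR) against RANKL, and both were called in the same direction against PBS (0.47 and -0.97), where 1 of the 2 calls was lost without replicate 1 or 3 of any group. Lgals1, the most abundant of them, had a log2 fold change of -0.27 against RANKL (adjusted p = 0.483, edgeR).

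Genes that bring fatty acids into the cell and activate them, together with partners of LPL, included 6 that rose and 3 that fell against RANKL of 17 tested (median -0.07). The acyl-CoA synthetase genes Acsl3 (2.61 ± 1.12 to 7.39 ± 1.74 FPKM, SD, n = 3; log2 fold change 1.68, adjusted p = 0.00533, edgeR) and Acsl4 (1.07, adjusted p = 0.00204, edgeR) rose, while Acsl1 fell (-0.74, adjusted p = 0.00301, edgeR) after being raised by RANKL alone (1.41, adjusted p = 0.00114, edgeR). Sel1l, which LPL needs to leave the endoplasmic reticulum, rose from 23.2 ± 3.25 to 54.7 ± 10.2 FPKM (SD, n = 3; 1.41, adjusted p = 0.00122, edgeR). The lysosomal CD36 relative Scarb2 (-1.08, adjusted p = 0.00703, edgeR) and the transporter gene Slc27a4 (-0.70, adjusted p = 0.0318, edgeR) fell. Against PBS, 8 were higher and 5 lower, with Vldlr the furthest up (2.17, adjusted p = 0.0026, edgeR). RANKL alone raised 2, Acsl1 and the scavenger receptor gene Msr1 (0.81, adjusted p = 0.0199, edgeR). Without RANKL replicate 1, 5 genes of this list were called for the vitamins against RANKL.

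For lipid droplets, 4 of 16 tested genes rose and 5 fell against RANKL (median 0.03). Hilpda, a droplet protein that inhibits lipolysis, rose from 2.87 ± 0.666 to 11.5 ± 5.73 FPKM (SD, n = 3; log2 fold change 2.20, adjusted p = 0.00561, edgeR), and so did the cholesterol esterifying enzyme gene Soat1 (0.86, adjusted p = 0.0197, edgeR) and Abhd5, an activator of lipolysis (0.76, adjusted p = 0.00386, edgeR). The genes that fell included the triglyceride synthesis genes Dgat2 (0.273 ± 0.142 to 0.0518 ± 0.0249 FPKM, SD, n = 3; -2.19, adjusted p = 0.0204, edgeR) and Lpin1 (-1.10, adjusted p = 0.00333, edgeR), and the lipase gene Lipe (-0.73, adjusted p = 0.00386, edgeR). Against PBS, 2 were higher, Hilpda and Abhd5, and 5 lower, among them the lipase gene Pnpla2 (-1.10, adjusted p = 0.00249, edgeR). RANKL alone lowered 1 of the 16, the lysosomal acid lipase gene Lipa (-0.55, adjusted p = 0.0267, edgeR). For the vitamins against RANKL, 5 genes were left as called without RANKL replicate 1 or vitamin replicate 3.

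Of 15 tested genes of fatty acid oxidation, 1 rose and 9 fell when the vitamins were added to RANKL (median -0.40). Acadm fell from 19.8 ± 1.93 to 9.01 ± 3.60 FPKM (SD, n = 3; log2 fold change -1.01, adjusted p = 0.00481, edgeR), Cpt1a, which admits fatty acids to mitochondria, from 20.2 ± 2.12 to 9.65 ± 2.34 FPKM (SD, n = 3; -0.94, adjusted p = 0.00244, edgeR), and Hadhb by 0.82 in log2 units (adjusted p = 0.00256, edgeR). Against PBS 2 were higher, Etfa (0.66) and Acadl (0.65), 5 were lower and 8 were not called. With RANKL alone 0 of the 15 were called by edgeR, 3 without vitamin replicate 2, 1 without vitamin replicate 1, and 4 by DESeq2. Leaving out single libraries gave 4 to 12 calls against RANKL, with 4 without RANKL replicate 1 or vitamin replicate 3, 5 without vitamin replicate 1 and 6 without RANKL replicate 3. Cpt1a, Acadm and Acadl are also in the list of PPARγ targets and count in both.

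The wider signature of lipid-associated macrophages, 23 genes beside the 9, did not move as one. Against RANKL, 11 rose and 4 fell (median 0.12), where 16.4% of all genes tested were called higher and 17.2% lower. Csf1, which encodes M-CSF, rose from 0.137 ± 0.0332 to 2.67 ± 1.68 FPKM (SD, n = 3; log2 fold change 4.46, adjusted p = 0.00151, edgeR), the integrin gene Itgax (CD11c) from 1.73 ± 0.0825 to 7.34 ± 0.724 FPKM (SD, n = 3; 2.24, adjusted p = 0.000422, edgeR), and the ferritin gene Fth1 by 1.61 in log2 units (adjusted p = 0.00425, edgeR). The apolipoprotein gene Apoe fell from 604 ± 339.5 to 73.0 ± 5.76 FPKM (SD, n = 3; -2.93, adjusted p = 0.00287, edgeR), Axl by 1.93 (adjusted p = 0.0025, edgeR) and Igf1 by 1.5 in log2 units (adjusted p = 0.00238, edgeR). Trem2, the lipid-sensing receptor by which these macrophages are often defined, was not called against RANKL (-0.14, adjusted p = 0.541, edgeR), and it was lower than in PBS (-0.70, adjusted p = 0.00815, edgeR). Its FPKM was 63.6, 83.4 and 62.3 with PBS, 53.9, 52.5 and 48.0 with RANKL, and 32.3, 55.8 and 40.4 with the vitamins. RANKL alone raised 2 of the 23, Itgax (1.37) and Cstb (0.81), and lowered 6, led by Apoe (-2.40), Axl (-1.59) and Igf1 (-1.19), with adjusted p = 0.0131, 0.0371, 0.0269, 0.0236 and 0.0268 in edgeR's test. Against PBS 7 were higher and 6 lower. Leaving out single libraries gave 7 to 15 calls against RANKL, the lowest counts being 7 without RANKL replicate 3, 8 without RANKL replicate 1 and 9 without vitamin replicate 3. Between RANKL and PBS it gave 0 to 11, with 0 without PBS replicate 3 or RANKL replicate 1. In the other lists, no more than 1 call between RANKL and PBS, in the uptake list, was left without either of these libraries. Without vitamin replicate 2 the calls there rose to 3 of the target, droplet and receptor lists each and to 4 of the uptake list.

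Receptors and partners of osteopontin, GPNMB and galectin-3 were divided evenly, with 4 of 14 tested genes higher and 4 lower against RANKL (median -0.09). The osteopontin receptor genes Cd44 (40.4 ± 5.56 to 78.4 ± 1.92 FPKM, SD, n = 3; log2 fold change 1.11, adjusted p = 0.000873, edgeR) and Itgb3 (2.08, adjusted p = 0.0186, edgeR) rose, as did Slc3a2, whose product CD98 binds galectin-3 (33.5 ± 2.80 to 316 ± 120.4 FPKM, SD, n = 3; 3.42, adjusted p = 0.000394, edgeR). The integrin gene Itga4 (-1.63, adjusted p = 0.00273, edgeR), the galectin-3-binding protein gene Lgals3bp (-1.17, adjusted p = 0.000937, edgeR) and the phagocytic receptor gene Mertk (26.5 ± 5.50 to 6.54 ± 1.56 FPKM, SD, n = 3; -1.89, adjusted p = 0.000661, edgeR) fell. Against PBS, 5 were higher and 5 lower. RANKL alone raised 1 of the 14, Lgals3bp (0.66, adjusted p = 0.0382, edgeR).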

How the data were processed

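RNA sequencing of mouse BMDMs was analysed in 3 groups of 3 libraries, grouped by the sample titles. The authors deposited 1 table with, per gene and library, a whole-number count of reads, not normalized, and an FPKM value that they normalized for transcript length and library size. The submitters' processing notes name cutadapt 1.9, HISAT2 2.0.4, StringTie 1.3.4d and edgeR, and a human build, although gene identifiers and coordinates are mouse: 8 of the 9 members have the coordinates of GENCODE M21 (GRCm38), and Lpl ends elsewhere. Strand use and the treatment of reads shared by similar genes are not given in the sources used here. A count of 4 occurred 2.22 times as often as counts of 3 and 5 did on average, so 1 count may not stand for 1 read.

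Genes were filtered with filterByExpr, scaled by TMM and compared by edgeR's quasi-likelihood test (edgeR 4.0.16, R 4.3.3) in 1 model with all 9 libraries, p-values being adjusted by Benjamini-Hochberg over the 17002 genes tested and a threshold of 0.05. The standard error was taken as the size of the log2 fold change over the square root of F, and 95% intervals as 1.96 standard errors either side. These intervals are approximate and narrower than edgeR's F test implies with so few libraries. The members, lists, markers and motifs were chosen with earlier results of these data known. Beside the members, up to 3 called genes in each direction with the largest fold change were named per list and comparison, any gene of a list of 6 or fewer, the 2 genes nearest to each member and treatment checks. Fabp3, Fabp7 and Trem2 were named after their values were seen. Some genes counted in the lists are not reported by name here. Log2 CPM used a prior count of 2. Alternatives were DESeq2 1.42.0, limma 3.58.1 on log2(FPKM + pseudocount) with 0.1, 1 and 0.01, other scaling and filters, only the 2 groups compared, counts divided by 4, each replicate left out and the replicate number as a block. Same-numbered libraries deviated together between PBS and RANKL (correlations of 0.122, 0.219 and 0.155 across genes), so that by the rule of every correlation above 0.1 the numbers pair these groups, but not the vitamin group with either (-0.0216 to 0.107).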

Additional observations from a re-analysis of the deposited data

How the results depend on the processing

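Over 19 alternative fits, Spp1, Lgals3, Plin2 and Pparg were called higher with the vitamins in both comparisons, Cd36 against RANKL and Lpl against PBS, in all 19. Of 513 alternative fold changes of members, 418 kept their direction and side of the threshold, 13 became called, 27 lost the call and 55 changed sign, all 55 between RANKL and PBS in genes not called there. The number of all genes called between RANKL and PBS, 614, was 1699 with DESeq2, 1736 with only the 2 groups in the model and 126 to 1903 when 1 library was left out (1903 without vitamin replicate 2, 126 without PBS replicate 3). With the replicate block it was 825. The number of members called there, 0, was 2 with DESeq2 (Lpl and Cd36), 1 with only the 2 groups (Cd36), 1 with the replicate block (Lpl) and 0 to 2 when 1 library was left out. Against RANKL the vitamin group had 5725 genes called and 3199 to 8259 when 1 library was left out, with 5 to 8 members called. Against PBS it had 6932 genes called and 4766 to 8868 when 1 library was left out, with 5 to 9 members called. With the replicate block, which by the correlations pairs only PBS and RANKL (each of 6 libraries was nearest to its own number there, 4 of 6 in each vitamin comparison), 5873 genes and 8 members were called for the vitamins against RANKL and 7041 genes and 6 members against PBS: Lpl was called against RANKL (0.76, adjusted p = 0.0172, edgeR) and Gpnmb was not called against PBS (0.55, adjusted p = 0.0514, edgeR), and the block changed no other member's call in the vitamin comparisons.

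Between RANKL and PBS the sign of 6 uncalled members was undetermined, and the cause was not tested. Spp1 was 0.22 with limma at each pseudocount and 0.0084 with the replicate block. Gpnmb was 0.0017 with DESeq2 and with median-of-ratios scaling, 0.037 with no filter, 0.027 with the FPKM filter and with counts divided by 4, 0.032 with only the 2 groups, and 0.10 with limma. Fabp4 was 0.0029 with DESeq2, 0.0028 with median-of-ratios scaling, 0.036 with no filter, 0.026 with the FPKM filter, 0.030 with only the 2 groups, 0.020 with counts divided by 4, and 0.035, 0.038 and 0.034 with limma at pseudocounts of 0.1, 1 and 0.01. Pparg was 0.030, 0.018, 0.024 and 0.020 with no filter, the FPKM filter, only the 2 groups and counts divided by 4, and 0.099, 0.075 and 0.10 with limma in the same order. With limma, Fabp5 was 0.0092 to 0.0093 and Lgals3 0.038. When 1 library was left out, Spp1 ranged from -0.47 to 0.84, Gpnmb from -0.086 to 0.14, Fabp4 from -0.29 to 0.27, Fabp5 from -0.20 to 0.070, Lgals3 from -0.15 to 0.0043 and Pparg from -0.15 to 0.11. Of 627 alternative list counts, 506 stayed within 1.5 times. With 3 libraries in a group and 1 vitamin library apart, small changes may be missed.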
